A study of Mus musculus with 16 samples.

Results

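The 10 genes described here carry growth hormone signalling from its receptor to the nucleus of the liver cell, hold it back, or set the liver genes that follow its rhythm. They are the kinase Jak2, the transcription factors Stat5a and Stat5b, the feedback inhibitors Socs2, Socs3 and Cish, and the nuclear regulators Cux2, Bcl6, Trim24 and Onecut1. They were chosen by name, with earlier results of these data known. Each of the 10 had a row among the 15544 gene identifiers of the liver table. All 10 also passed the filter on low values (4 or more libraries with a value of at least 1), which left 12704 genes for testing.

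Livers came from 16 female mice aged 27 weeks, with 1 bulk RNA-seq library per mouse. Controls were Esr1 fl/fl and mutants were Esr1 Nkx2-1Cre, so that both genotypes carried the floxed gene for oestrogen receptor alpha. Cre was driven by Nkx2-1 and removed the receptor from part of the hypothalamus. Mutant females have high bone mass, which the study reports was reversed by a high-fat diet. Nkx2-1 is also active outside the brain, as in lung and thyroid. Mice of each genotype were either kept on chow or fed a high-fat diet (HFD) for 17 weeks, which made 4 groups of 4 mice: control chow, mutant chow, control HFD and mutant HFD. The mice were on a mixed genetic background. In these bulk samples, fewer cells of a type and less RNA per cell cannot be told apart.

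Growth hormone is released by the pituitary in pulses in male rodents and more evenly in females. On the hepatocyte it activates JAK2, which phosphorylates STAT5 proteins. These enter the nucleus and switch on genes such as Igf1, Socs2 and Cish, and the proteins made from the SOCS family then damp the same receptor. The rhythm of the hormone also sets many sex-biased liver genes, partly through CUX2, a repressor found mainly in female liver, and BCL6, a repressor that competes with STAT5 for sites and is higher in males. RNA levels report none of the phosphorylation steps.

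The values are read as gene signals in TPM-like units, that is, shares of the library corrected for transcript length. Size factors seem to have adjusted them between libraries. Both points were inferred from the values and are not stated in the sources used here. The sequencing depth behind the values is unknown, and the spread between mice is the error given. Esr1 itself ranged from 6.14 to 22.9 over the 16 livers, which does not check a deletion made in the brain. Albumin (Alb), the defining hepatocyte transcript, ranged from 36044 to 79775, and of the other 9 hepatocyte markers the lowest value in any library was 305.8 (Tat). Several libraries stood apart. Mutant chow replicate 2 had a summed signal of 20 acute-phase genes of 138490, against 17146 to 43798 in the other 15 libraries. The summed signal of 7 neutrophil markers was 24.3 to 5674 in chow-fed mutants, and 4.51 to 12.1 in chow-fed controls. Ly6g, a further neutrophil marker, had no row. In a precision-weighted fit, control HFD replicate 4 and mutant HFD replicate 1 received the lowest weights, 0.228 and 0.329. The numbers in the library titles form 2 series within each diet. The lower-numbered HFD series held 3 controls and 1 mutant (mutant HFD replicate 1), and the higher-numbered series held 3 mutants and 1 control (control HFD replicate 4). The labels do not say what the numbers mean.

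Trim24 and Cux2 were the most abundant members, with mean signals of 43.6 and 39.2 over the 16 livers. These means were above those of 82.7% and 81.1% of tested genes. Socs2 and Stat5b followed at 24.5 and 23.9, then Onecut1 at 15.6. Cish, Stat5a and Socs3 lay close together at 9.27, 8.69 and 8.49, and Jak2 at 6.40 and Bcl6 at 5.37 were lowest. Between Stat5b and Stat5a, the pair of STAT5 genes, Stat5b was the more abundant in every library.

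The members differed in how much they varied. From the lowest to the highest liver, Stat5b spanned a ratio of 1.57 and Jak2 a ratio of 2.19. Trim24, Stat5a and Bcl6 lay in between, at 2.74, 2.92 and 3.47. The ratio was 11.9 for Socs3, 11.5 for Cux2, 9.29 for Onecut1, 8.01 for Socs2 and 7.78 for Cish. On the log2(signal + 1) scale the SD over 16 livers of these 5 genes was 0.82 to 0.94, larger than that of 96.9% to 97.9% of tested genes, where the median SD was 0.272. The SD of Stat5b, 0.163, was larger than that of 12.3% of tested genes, and those of Jak2, Bcl6, Stat5a and Trim24 were larger than those of 47% to 75.3%. The plot of signal by group shows this spread within single groups.

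**Figure D1:**
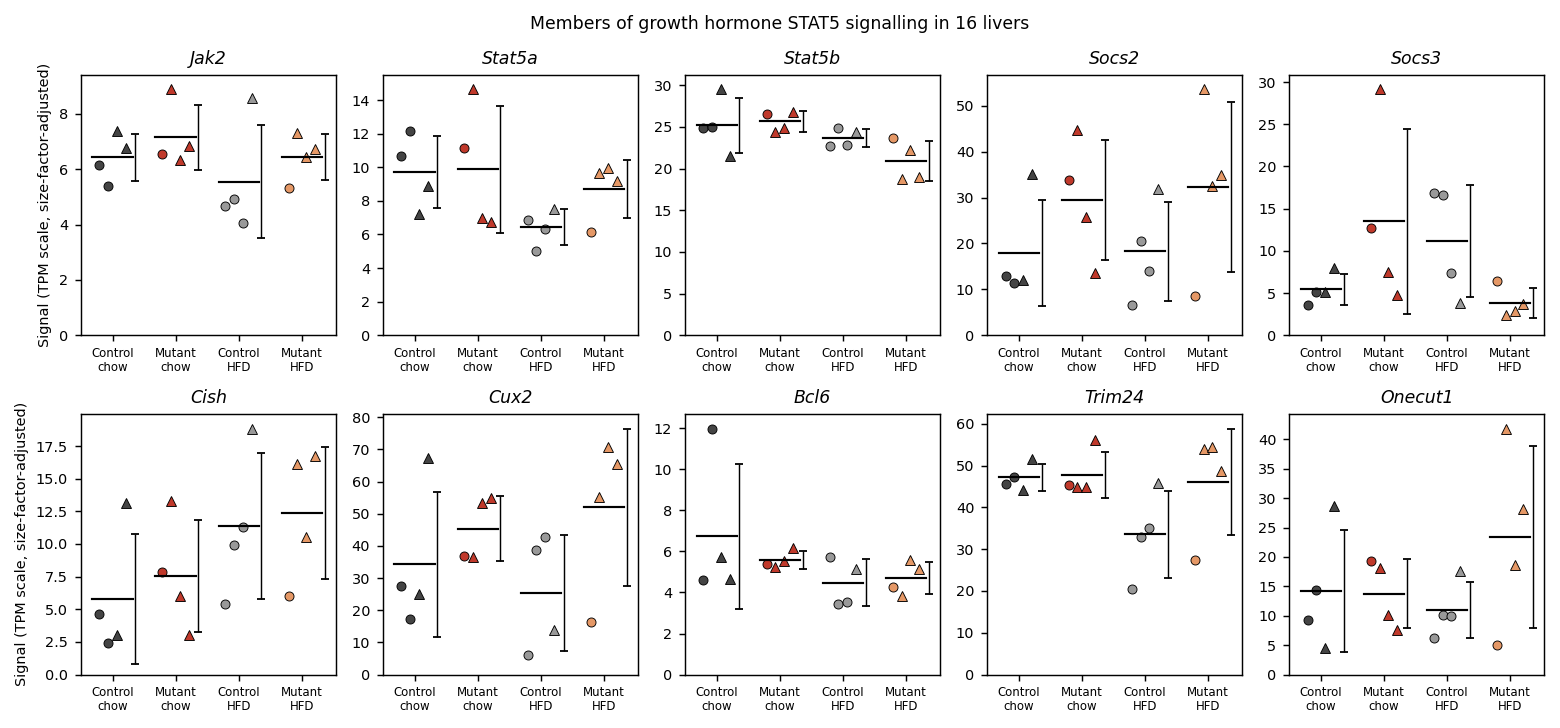
Signal of each member in the 16 livers (vertical axis, TPM scale after size-factor adjustment, from 0), by group. Circles are libraries of the lower-numbered title series and triangles of the higher-numbered series, horizontal lines are group means and vertical bars are the SD (n = 4 mice). Socs2, Cish, Cux2, Onecut1 and Socs3 spread widely within groups, while Stat5b stayed between 18.8 and 29.5.

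Jak2, the kinase bound to the growth hormone receptor, is on chromosome 19 (GRCm38 chr19:29251828-29313080, plus strand). Its signal was 6.17, 5.40, 7.39 and 6.78 in chow-fed controls and 6.54, 8.89, 6.35 and 6.85 in chow-fed mutants. On HFD it was 4.66, 4.93, 4.05 and 8.57 in controls and 5.32, 7.31, 6.44 and 6.72 in mutants. The 4 groups overlapped, and the control HFD group held both the lowest livers and a single high liver, replicate 4.

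Stat5b and Stat5a encode the STAT5 proteins, of which STAT5B is the main form in liver. The genes are neighbours on chromosome 11, at chr11:100780731-100850724 on the minus strand and chr11:100859351-100885169 on the plus strand, 8626 bases apart. They also share sequence: 15.1% of the 31-base words of Stat5b transcripts occur in Stat5a transcripts, so assignment of some reads between them rests on estimation. Stat5b signal was 24.8, 24.9, 29.5 and 21.5 in chow-fed controls, 26.6, 24.4, 24.9 and 26.8 in chow-fed mutants, 22.8, 24.9, 22.8 and 24.3 in controls on HFD, and 23.7, 18.8, 22.2 and 19.0 in mutants on HFD. The highest mutant on HFD was below the lowest mutant on chow, and this was the sole non-overlap among the members in any comparison of groups. In that comparison 3.53% of all tested genes did not overlap, and over the 4 comparisons of groups the share was 2.69% to 6.36%. By mean, mutants on chow (25.7 ± 1.23, SD, n = 4) came first, then controls on chow (25.2 ± 3.28), controls on HFD (23.7 ± 1.08) and mutants on HFD (20.9 ± 2.43), with each neighbouring pair overlapping. Stat5a signal was 10.7, 12.1, 7.21 and 8.90 in chow-fed controls, 11.1, 14.6, 6.99 and 6.73 in chow-fed mutants, 6.87, 5.02, 6.35 and 7.49 in controls on HFD, and 6.15, 9.64, 9.93 and 9.17 in mutants on HFD. In mutants on HFD 3 livers sat near 9 or 10 and replicate 1 below the others.

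Cish and Socs2 are classic STAT5 targets whose products bind the activated receptor and dampen it. Cish (chr9:107296026-107302784, plus strand) holds 2 non-overlapping copies of the STAT5 consensus TTCNNNGAA at its RefSeq start site. The stretch is shown because it carries the closest pair of such matches among the members' promoter windows, and the capitals mark the matches, which begin at the first and the twelfth transcribed base, inside the annotated exon and untranslated region.
Cish, chr9:107296655-107296682, plus strand: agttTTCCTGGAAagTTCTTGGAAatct
The consensus is its own reverse complement, so one search covers both strands. Over all RefSeq windows of 300 bases (250 before to 50 after a start site, GRCm38), 8.3% held at least 1 match and 0.457% held 2 or more. Of the members, 9 had such a window (all but Socs2) and 3 held a match: Cish, Socs3 and Bcl6. Over all gene symbols, 9.55% held a match in any window. By window, 4 of the 14 member windows held one. A match to these letters is not evidence of binding.

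Cish signal was 4.62, 2.42, 2.999 and 13.1 in chow-fed controls and 7.84, 13.3, 6.02 and 3.04 in chow-fed mutants. It was 5.39, 9.95, 11.3 and 18.8 in controls on HFD and 5.99, 16.1, 10.6 and 16.7 in mutants on HFD. The 2 genotypes overlapped on each diet, and the HFD groups had the higher means (11.4 ± 5.59 and 12.4 ± 5.07 against 5.79 ± 4.98 and 7.54 ± 4.30, SD, n = 4). Socs2 (chr10:95385362-95417180, minus strand) had signals of 12.9, 11.4, 12.1 and 35.2 in chow-fed controls and 33.9, 44.7, 25.9 and 13.5 in chow-fed mutants. On HFD it had 6.69, 20.4, 14.0 and 31.9 in controls and 8.49, 53.6, 32.4 and 34.8 in mutants. The groups overlapped on each diet. In 3 of the 4 groups the same library was the highest for Socs2 and for Cish: control chow replicate 4, mutant chow replicate 2 and control HFD replicate 4. In mutants on HFD the highest was replicate 2 for Socs2 and replicate 4 for Cish. Parts of both loci are shared with other annotated genes, 4.99% of 31-base words of Socs2 with the pseudogene Gm9847 and 6.54% of those of Cish with the antisense gene Gm17041. Whether strand was used in assigning reads is not given in the sources used here.

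Socs3 (chr11:117966079-117970047, minus strand) is induced chiefly by STAT3 downstream of interleukin-6 type cytokines and also restrains growth hormone signalling. Its window held 1 match, which begins at position -154 from the RefSeq start site and falls in an intron by GENCODE. It is printed with 12 flanking bases for comparison with the pair at Cish, and the capitals mark the match.
Socs3, chr11:117969500-117969532, minus strand: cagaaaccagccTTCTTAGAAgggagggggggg
Its signal was 3.55, 5.08, 5.17 and 7.94 in chow-fed controls and 12.7, 29.1, 7.46 and 4.72 in chow-fed mutants. On HFD it was 16.9, 16.6, 7.36 and 3.78 in controls and 6.40, 2.45, 2.85 and 3.71 in mutants. The order of the genotypes by mean was thus opposite on the 2 diets, with overlap on both: 5.43 ± 1.83 in chow-fed controls and 13.5 ± 10.9 in chow-fed mutants, and 11.2 ± 6.62 in controls and 3.85 ± 1.78 in mutants on HFD (SD, n = 4). The library with the highest Socs3, mutant chow replicate 2, was also the one with the highest acute-phase sum.

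Among the nuclear regulators, Cux2 (chr5:121856366-122050102, minus strand) varied most. Its signal was 27.4, 17.1, 24.9 and 67.5 in chow-fed controls, 36.9, 36.4, 53.3 and 54.8 in chow-fed mutants, 6.14, 38.8, 42.8 and 13.7 in controls on HFD, and 16.5, 55.3, 70.7 and 65.4 in mutants on HFD. On chow 3 controls lay below all 4 mutants and 1 control above them. On HFD 3 mutants lay above all 4 controls and mutant replicate 1 among them. Onecut1 (chr9:74861921-74891781, plus strand) encodes a liver transcription factor that responds to growth hormone. Its signal was 9.29, 14.4, 4.50 and 28.6 in chow-fed controls, 19.3, 18.1, 10.1 and 7.54 in chow-fed mutants, 6.19, 10.1, 9.98 and 17.6 in controls on HFD, and 4.99, 41.8, 18.7 and 28.1 in mutants on HFD. Here too 3 mutants on HFD lay above every control, by a small margin, and replicate 1 below them all. For Onecut1, 52.5% of 31-base words are shared with the overlapping gene Gm20649, which has no row in the table, so its level is uncertain where reads could be split between the 2 genes.

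Trim24 (chr6:37870811-37966296, plus strand), a chromatin reader that represses retinoic acid receptor activity, was steady on chow and spread on HFD. On chow its signal was 45.6, 47.4, 44.1 and 51.5 in controls and 45.3, 44.8, 44.8 and 56.0 in mutants. On HFD it was 20.5, 32.8, 35.0 and 45.8 in controls and 27.5, 54.0, 54.4 and 48.6 in mutants. The 3 controls of the lower-numbered HFD series and the mutant of that series were the 4 lowest livers of all 16.

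Bcl6 (chr16:23965052-23988852, minus strand) was the least abundant member. Its signal was 4.60, 11.99, 5.71 and 4.65 in chow-fed controls and 5.36, 5.24, 5.53 and 6.19 in chow-fed mutants. It was 5.73, 3.46, 3.53 and 5.16 in controls on HFD and 4.28, 3.83, 5.57 and 5.12 in mutants on HFD. Apart from control chow replicate 2, all livers lay between 3.46 and 6.19. Bcl6 is shown here because one of its windows held 3 matches to the STAT5 consensus, a number that 0.0335% of all windows reached, and the capitals mark the matches.
Bcl6, second RefSeq start site, chr16:23981351-23981463, minus strand: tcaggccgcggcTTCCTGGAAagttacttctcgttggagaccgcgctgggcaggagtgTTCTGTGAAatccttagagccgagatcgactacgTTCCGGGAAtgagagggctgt
Bcl6, first RefSeq start site, chr16:23988950-23988982, minus strand: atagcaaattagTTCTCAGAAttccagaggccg
The 3 matches begin at positions -168, -122 and -88 from the second start site, within an intron of the longer gene model. The single match begins at position -118 from the first start site, outside the gene.

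The genotype comparison asks whether loss of the receptor in the hypothalamus is accompanied by a change of the pathway in liver. On chow none of the 10 members passed the threshold in limma (adjusted p under 0.05, over all 12704 genes), which 0.0236% of all tested genes did. None had an unadjusted p under 0.05, against 6.08% of tested genes, and none had groups that did not overlap, against 3.05%. The larger differences, mutants minus controls on the log2(signal + 1) scale, were those of Socs3 (0.93 ± 0.48, SE), Socs2 (0.73 ± 0.55) and Cux2 (0.56 ± 0.57), with limma adjusted p of 0.839, 0.946 and 0.978. The others were 0.43 for Cish, 0.13 for Jak2 and Onecut1, 0.03 for Stat5b, 0.01 for Trim24, -0.02 for Stat5a and -0.14 for Bcl6, with SE of 0.11 to 0.57 and limma adjusted p of 0.984 to 1. Without control chow replicate 4 the differences of Socs2 and Cux2 were 1.099 and 0.941, without control chow replicate 2 that of Cux2 was 0.30, and without mutant chow replicate 2 that of Socs2 was 0.50. Without mutant chow replicate 2 the Socs3 difference was 0.48, and without mutant chow replicate 4 it was 1.28, with an unadjusted p under 0.05 for 1 member (8.72% of genes). Over the 8 chow livers the mean log2 level of the neutrophil markers had a Pearson correlation of 0.88 with Socs3 and 0.72 with Socs2, and its part in these differences was not tested. The median over the 10 members was 0.129 and 8 were above 0, where the median over all tested genes was 0.02 and 54.6% were above 0.

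On HFD none of the 10 members passed either (0.0157% of tested genes did), and 1 had an unadjusted p under 0.05, Socs3, against 8.6% of tested genes. Socs3 was lower in mutants by a factor of 2.28 on this scale (log2 difference -1.19 ± 0.48, SE, limma adjusted p = 0.56). That count of 1 became 7 without mutant HFD replicate 1 (20.1% of genes), 3 without control HFD replicate 4 (23.9%), 2 without control HFD replicate 3 (5.42%), and 0 without control HFD replicate 1 (5.8%), mutant HFD replicate 2 (4.49%) or mutant HFD replicate 3 (5.03%). No member's groups were free of overlap, where 2.69% of genes were. Cux2 (1.17 ± 0.57), Onecut1 (0.79 ± 0.57), Socs2 (0.73 ± 0.55) and Trim24 (0.45 ± 0.22) had higher means in mutants, with limma adjusted p of 0.577, 0.656, 0.663 and 0.578. These values depended on single libraries. Without mutant HFD replicate 1 they were 1.64, 1.36, 1.26 and 0.68. Without control HFD replicate 1 they were 0.66 for Cux2, 0.36 for Socs2 and 0.24 for Trim24, and without mutant HFD replicate 2 Onecut1 was 0.42. Stat5a (0.38), Jak2 (0.22), Cish (0.13), Bcl6 (0.07) and Stat5b (-0.18) had SE of 0.11 to 0.48 and limma adjusted p of 0.611 to 0.942. The median over members was 0.301, with 8 above 0, where all tested genes had a median of 0.0161 and 52.9% above 0. When libraries were weighted by their estimated precision, 6 members passed (Jak2, Stat5a, Socs2, Trim24 and Onecut1 higher in mutants and Socs3 lower), in a fit that called 30.9% of all tested genes. That fit gave its lowest weights to control HFD replicate 4 (0.228) and mutant HFD replicate 1 (0.329). Each is the only library of its genotype in its title series, so genotype and series are harder to tell apart there. With the title series as a term, none passed, no member had an unadjusted p under 0.05 (4.47% of tested genes), and the differences of Jak2, Socs2, Cish, Bcl6 and Onecut1 took the opposite sign, at -0.05, -0.11, -0.41, -0.03 and -0.01. Those of Socs3, Trim24, Stat5a, Stat5b and Cux2 kept their sign, at -0.584, 0.065, 0.170, -0.131 and 0.862.

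The diet comparisons ask how 17 weeks of HFD bore on the pathway within each genotype, and in them diet and title series cannot be told apart, since each series lies within 1 diet. In controls, 0 of 10 members passed (0% of tested genes), 2 had an unadjusted p under 0.05 (12.9% of tested genes) and 0 did not overlap (6.36%). These 2 were Trim24 (-0.53 ± 0.22, SE) and Stat5a (-0.52 ± 0.22), both with lower means on HFD and with limma adjusted p of 0.332 and 0.345. Without control HFD replicate 1 the Trim24 difference was -0.32. The count of 2 became 4 without control HFD replicate 4 (26.7% of genes), 1 without control HFD replicate 2 (8.3%) or 3 (8.43%), and 0 without control chow replicate 2 (10.1%). Cish had the largest difference in the other direction (0.99 ± 0.48, limma adjusted p = 0.395). The others were 0.76 for Socs3, -0.0011 for Socs2, -0.08 for Stat5b, -0.17 for Onecut1, -0.22 for Jak2, -0.43 for Bcl6 and -0.58 for Cux2, with SE of 0.11 to 0.57 and limma adjusted p of 0.441 to 1. With library weights, 3 members passed (Jak2, Stat5a and Trim24, lower on HFD), as did 17.8% of tested genes. In mutants, 0 of 10 passed (0%), 2 had an unadjusted p under 0.05 (6.86%) and 1 did not overlap (3.53%). Stat5b was lower on HFD by a factor of 1.22 (-0.29 ± 0.11, limma adjusted p = 0.63), and with 1 library left out the difference was between -0.35 and -0.24. Socs3 was lower by a factor of 2.56 (-1.36 ± 0.48, limma adjusted p = 0.623). Without mutant chow replicate 2 it was -0.91. The count at unadjusted p became 1 without that library (5.35% of genes), mutant HFD replicate 2 (5.97%) or mutant HFD replicate 4 (5.64%), and 3 without mutant HFD replicate 1 (7.63%). The others were 0.69 for Cish, 0.50 for Onecut1, 0.03 for Cux2, -0.0004 for Socs2, -0.09 for Trim24, -0.12 for Stat5a, -0.13 for Jak2 and -0.22 for Bcl6, with SE of 0.18 to 0.57 and limma adjusted p of 0.837 to 1.

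**Figure D2:**
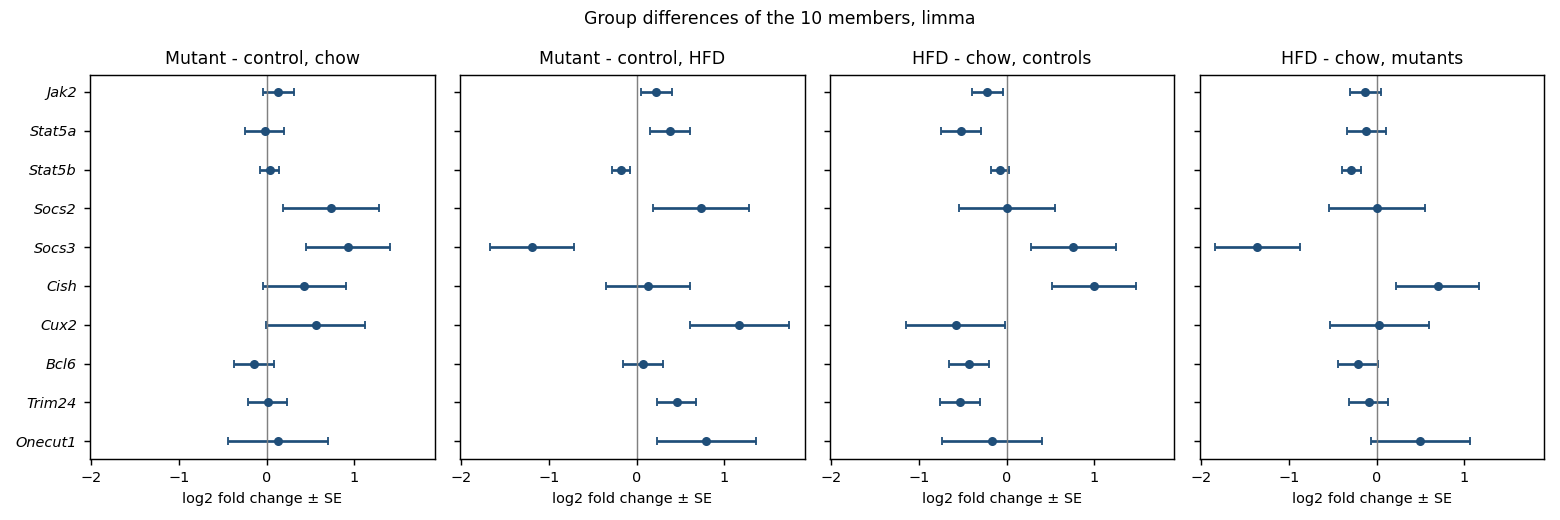
Differences of the 10 members in the 4 comparisons of groups (horizontal axis, log2 fold change on the log2(signal + 1) scale, points with SE bars from limma, 4 mice per group, named above each panel as first group minus second). No member passed the adjusted threshold in any panel, and Socs3 lies to the right of 0 in chow-fed mutants (0.93) and to the left on HFD (-1.19).

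The interaction asks whether the genotype difference changed with diet. None of the 10 members passed (0% of tested genes), and 1 had an unadjusted p under 0.05 (4.21% of tested genes). That was Socs3, whose genotype difference on HFD minus that on chow was -2.12 ± 0.68 (SE) on the log2 scale (limma adjusted p = 0.895). Leaving out 1 library at a time moved this value between -2.50 and -1.67, and with the title series as a term it was -1.47. Without mutant HFD replicate 1 there were 2 members at unadjusted p under 0.05 (10.2% of genes). The others were 0.67 for Onecut1, 0.61 for Cux2, 0.44 for Trim24, 0.40 for Stat5a, 0.21 for Bcl6, 0.09 for Jak2, 0.0007 for Socs2, -0.21 for Stat5b and -0.30 for Cish, with SE of 0.15 to 0.80 and limma adjusted p of 0.895 to 1. The acute-phase list had medians of the same signs: its median interaction was -1.13, its median genotype difference was 1.1 on chow and -0.24 on HFD, and 0 of its 20 genes passed in any of these. Medians of the immediate early genes, in the same order, had these signs too (-0.681, 0.258 and -0.439). So had those of the Kupffer cell and macrophage markers (-0.717, 0.649 and -0.119). The neutrophil median was instead higher in mutants on HFD (1.028). The part of these lists in the Socs3 values was not tested.

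The HFD title series was compared within the 4 group means, as higher-numbered minus lower-numbered libraries. In the fit without library weights it was the only comparison in which members passed the threshold: 4 of 10 did, all higher in the higher-numbered series, where 25.2% of all tested genes were called. Trim24 was 1.72-fold higher (0.78 ± 0.17, SE, limma adjusted p = 0.00502) and Jak2 1.46-fold (0.55 ± 0.14, limma adjusted p = 0.0125). Socs2 was 3.21-fold higher (1.68 ± 0.49, limma adjusted p = 0.0253) and Onecut1 3.07-fold (1.62 ± 0.54, limma adjusted p = 0.0435). At an unadjusted p under 0.05 there were 6 members against 37.8% of tested genes, the further ones being Cish (1.09 ± 0.50) and Socs3 (-1.22 ± 0.49), with limma adjusted p of 0.13 and 0.0899. Stat5a, Stat5b, Bcl6 and Cux2 did not pass either (0.42, -0.10, 0.20 and 0.61, with SE of 0.12 to 0.66 and limma adjusted p of 0.186 to 0.624). Without control HFD replicate 4 the Jak2 difference was 0.31, and without mutant HFD replicate 1 that of Onecut1 was 0.96.

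In the signals themselves, 6 members did not overlap between the 4 lower-numbered and 4 higher-numbered HFD livers, where 35.6% of tested genes did not. Socs2 lay between 6.69 and 20.4 in the lower-numbered series and between 31.9 and 53.6 in the higher-numbered one. Trim24 lay between 20.5 and 35.0 and between 45.8 and 54.4, and Onecut1 between 4.99 and 10.1 and between 17.6 and 41.8. Jak2 and Stat5a were likewise higher and Socs3 lower in the higher-numbered series. Cux2 was not separated in this way: the control of the higher-numbered series had 13.7 and its 3 mutants 55.3 to 70.7. Within a series, where the groups were 3 livers against 1, the mutant minus control difference of Trim24 was -0.06 in the lower-numbered and 0.19 in the higher-numbered series, against 0.45 over all HFD livers. That of Socs2 was -0.51 and 0.29, and that of Cux2 was -0.41 and 2.13. The calls rested on the libraries that cross the pattern. Without control HFD replicate 4 the series term called 1 member (Trim24, with 5.61% of genes), and without mutant HFD replicate 1 it called 1 (Jak2, with 14.7%) and left 2 at unadjusted p under 0.05 (29.2% of genes). With library weights it called 2 (Jak2 and Trim24, with 20.9% of genes).

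**Figure D3:**
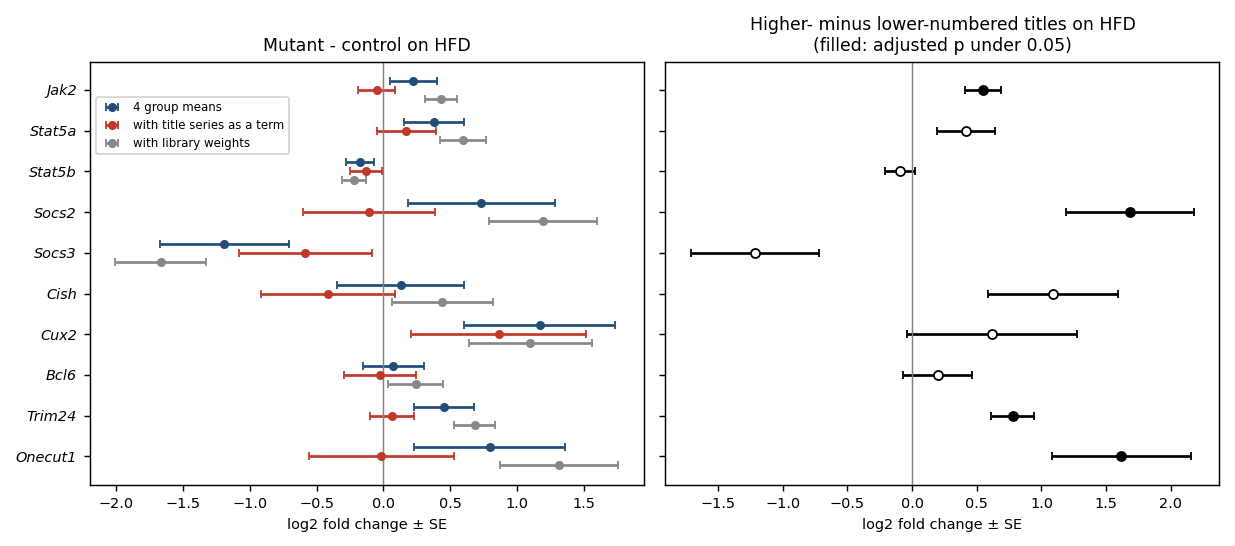
Left, mutant minus control on HFD for each member, with the 4 group means alone (blue), with the title series as a term (red) and with library weights (grey). Right, higher- minus lower-numbered HFD libraries, filled where the limma adjusted p is under 0.05. Both horizontal axes are log2 fold changes on the log2(signal + 1) scale with SE bars. The values of Socs2 and Onecut1 on the left are 0.73 and 0.79 with the group means alone, -0.11 and -0.01 with the series term, and 1.195 and 1.314 with library weights.

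Several members varied together from liver to liver. The values that follow are Pearson correlations of log2(signal + 1), given as descriptions. The points share library and normalisation, and on HFD they also share the title series. Socs2 and Cish had r = 0.95 over the 8 chow livers and 0.89 over the 8 HFD livers, and 0.75 over all 16, with Cish higher relative to Socs2 on HFD. Socs2 and Onecut1 had r = 0.74 on chow, 0.96 on HFD and 0.87 over all 16, while Onecut1 and Stat5b had -0.68 over 16 livers. Cish and Onecut1 had 0.76 on chow and 0.86 on HFD. The common variation of the 3 genes was present within groups as well: after group means were removed, r was 0.91 for Socs2 with Cish and 0.89 for Socs2 with Onecut1. All 3 were lower where the mean log2 level of the hepatocyte markers was higher. On chow and HFD, r with that mean was -0.770 and -0.385 for Socs2, -0.875 and -0.638 for Cish, and -0.524 and -0.373 for Onecut1. Its part in the common variation was not tested. Trim24 followed Socs2 on HFD (0.95) but not on chow (-0.14).

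Socs3 did not follow Socs2 and Cish in the same way on the 2 diets. Its r with Socs2 was 0.87 on chow and -0.75 on HFD. With the mean log2 level of the 20 acute-phase genes, which do not include Socs3, it had 0.94 on chow and 0.88 on HFD, 0.86 over 16 livers and 0.75 without the 2 livers farthest from the median of Socs3. The link was not particular to that list. With the immediate early genes, which respond to handling and stress, r was 0.765 on chow, 0.664 on HFD and 0.708 over 16 livers. Leaving out 2 livers by the same rule gave 0.893. With the Kupffer cell and macrophage markers these values were 0.855, 0.646, 0.712 and 0.670. The neutrophil markers had 0.883 on chow and -0.575 on HFD. Which of these lists bears on Socs3 was not tested. Other members also tracked the acute-phase mean on HFD, with the opposite sign: -0.940 for Trim24, -0.868 for Socs2, -0.796 for Cish and -0.776 for Onecut1. Stat5b and Bcl6 had 0.377 and 0.166 there. On chow Jak2 had 0.759 and Socs2 0.710 with that mean, and Trim24 -0.269. Of all tested genes, the acute-phase gene Orm3 was most like Socs3 (0.943, n = 16). Trim24 had r = 0.88 with the mean of 28 female-biased liver genes over 16 livers, 0.48 on chow and 0.89 on HFD, and Cux2 had 0.76, 0.58 and 0.84. On HFD this was not particular to them: Onecut1 had 0.894, Socs2 0.863, Stat5a 0.795, Cish 0.723 and Jak2 0.555. Bcl6 had 0.118, Stat5b -0.753 and Socs3 -0.757 there. The gene most like Cux2 was Cyp2a4 (0.915, n = 16), a female-biased cytochrome P450 on that list.

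**Figure D4:**
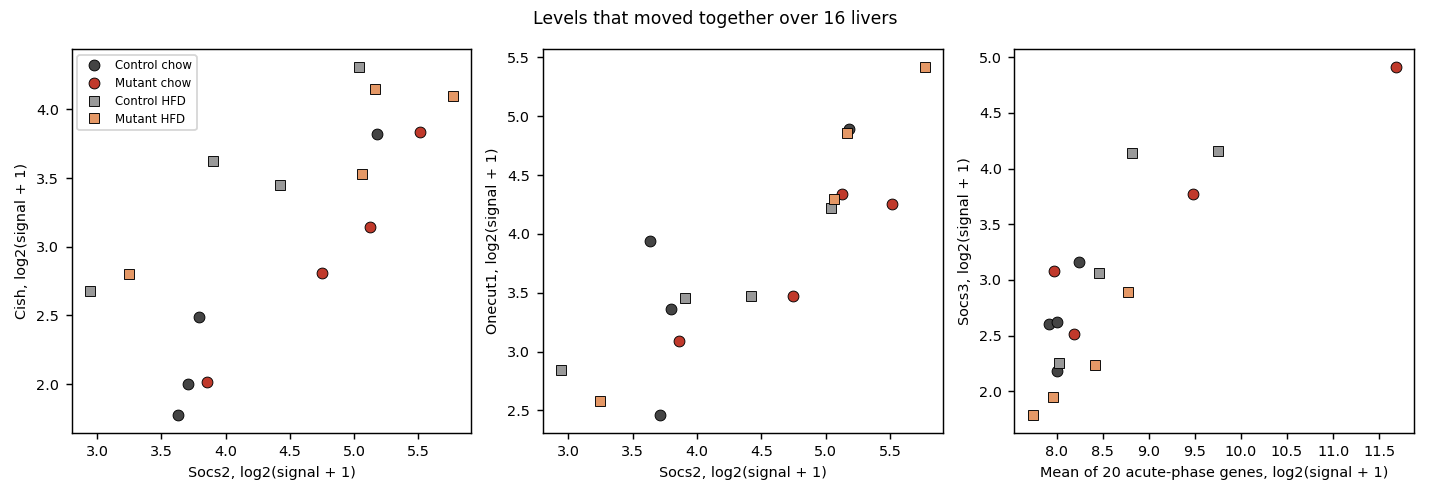
Each point is 1 liver, by group (circles chow, squares HFD). Left and middle, Cish and Onecut1 against Socs2, and right, Socs3 against the mean of 20 acute-phase genes, all on the log2(signal + 1) scale. Cish and Onecut1 climb with Socs2 on each diet, and the highest Socs3 point is mutant chow replicate 2.

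**Figure D5:**
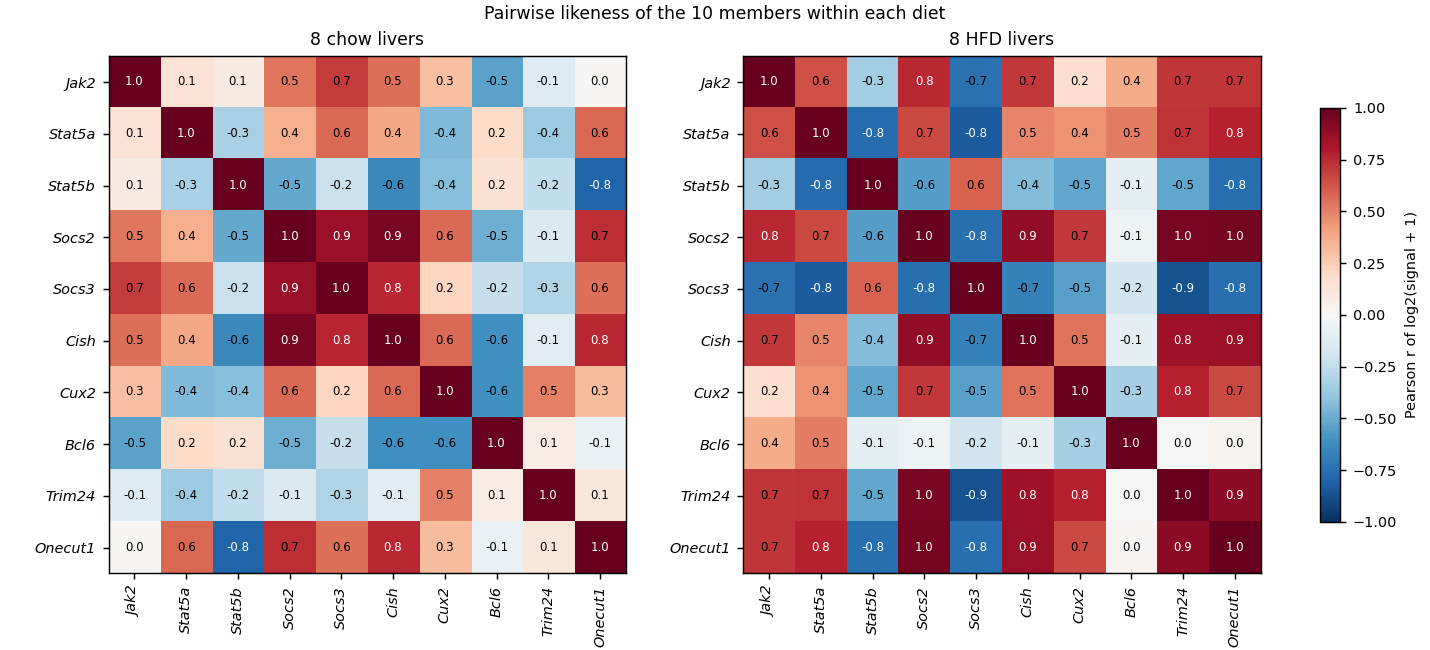
Pearson r of log2(signal + 1) between every pair of members, over the 8 chow livers (left) and the 8 HFD livers (right), from blue (-1) to red (1). Socs2, Cish and Onecut1 form a red block in both panels, and the Socs3 row turns from mostly red to blue, for example from 0.87 to -0.75 with Socs2.

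By the same measure over 16 livers, the tested gene most like each remaining member was Haus2 for Jak2 (0.930), Camkk2 for Stat5a (0.919), Ip6k2 for Stat5b (0.866), Nfatc1 for Socs2 (0.890), Lonrf1 for Cish (0.846), Fip1l1 for Bcl6 (0.847) and Stard4 for Trim24 (0.964). For Onecut1 it was Socs2 (0.868). These are the highest of 12704 values for each gene and carry no test.

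Of 26 further receptors, adaptors, phosphatases and modulators, 0 passed in the 5 comparisons of genotype and diet. In the HFD title series 6 were higher and 1 lower, where 25.2% of all tested genes were called. They were led by Prlr, the prolactin receptor (1.29 ± 0.21, SE, limma adjusted p = 0.00125), Pias2 (0.62 ± 0.11, limma adjusted p = 0.00183) and Ghr, the growth hormone receptor (0.62 ± 0.14, limma adjusted p = 0.00724). Prlr also stands on the list of female-biased genes and Ghr on that of STAT5 targets. The Ghr values by genotype were picked after they were seen. On chow Ghr signal was 398 ± 14.9 in mutants and 319 ± 20.5 in controls (SD, n = 4). These did not overlap, as was so for 3.05% of tested genes, and limma gave a log2 difference of 0.32 with adjusted p = 0.859. On HFD Ghr signal was 487 ± 154 in mutants and 323 ± 49.7 in controls with overlap. There limma gave a log2 difference of 0.545 with adjusted p = 0.527. Of 7 growth targets of STAT5, 5 had a row. None of the 5 passed for genotype or diet, and 3 were higher in the higher-numbered HFD series, including Igf1, the main growth mediator (0.46 ± 0.14, limma adjusted p = 0.0274). Of 19 further liver transcription factors, 0 passed for genotype or diet and 5 were higher in the higher-numbered series, led by Onecut2 (0.96 ± 0.15, limma adjusted p = 0.000728).

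Sex-biased liver genes are set in large part by growth hormone. Of 28 female-biased genes, 0 passed in the 5 comparisons. At an unadjusted p under 0.05 there were 13 higher in mutants on HFD (8.6% of all tested genes passed, in either direction), and 3 higher and 2 lower in chow-fed mutants (6.08%), with list medians of 0.64 and 0.33. On chow their summed signal, in which abundant genes weigh most, was 12798 to 15066 in mutants and 6418 to 9911 in controls. On HFD it was 3547 to 13922 in mutants and 2669 to 4754 in controls. The genotypes lay closer by mean log2 level, in which each gene counts alike. That level was 6.9728 to 7.4675 in mutants and 6.6210 to 6.9719 in controls on chow, and 5.5770 to 7.6044 and 5.3963 to 6.2156 on HFD. The gene with the smallest p on chow, Cyp2b13, was lower in mutants (-3.12 ± 0.89, SE, limma adjusted p = 0.599). In the HFD title series 11 of the 28 were higher and none lower, against the 25.2% of all tested genes. Of the 17 tested male-biased genes, 0 passed for genotype or diet, while the higher-numbered series had 3 of them higher and 2 lower. At an unadjusted p under 0.05, 1 was higher and 3 were lower in mutants on each diet (6.08% of all tested genes on chow and 8.6% on HFD). Their list medians were -0.28 on chow and -0.22 on HFD. Of the 12 tested immediate early genes, which respond to handling and stress, 0 passed for genotype or diet and 3 were lower in the higher-numbered HFD series.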

How the data were processed

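RNA of 16 livers was sequenced by the study on a NovaSeq instrument from NEBNext Ultra II libraries. Per the labels and the study's methods, the authors assigned reads to the mm10 transcriptome with kallisto in gene mode and tested with sleuth. Versions, annotation release and filter are not given in the sources used here. The deposited table holds a gene-level signal, taken from its values to be TPM adjusted by size factors (fractional, column totals 905897 to 1119703).

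Groups came from the genotype and treatment labels, and replicate numbers, given in sample order, pair nothing. Differences were tested with limma 3.58.1 (R 4.3.3) on log2(value + 1), which understates changes of low genes, with 4 group means, a variance trend and Benjamini-Hochberg adjustment over 12704 genes. The script was tested on simulated data. The HFD title series was tested with group means and a chow series term. Alternatives were size factors, a total of 1000000, a pseudocount of 0.1, no filter or a filter at 5, 2 groups only, library weights, the series term, and leaving out each library. Positions came from GENCODE M21, and sequences from RefSeq windows (GRCm38.p6).

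The members and lists were chosen with earlier results of these data known. By rule, all 10 members were given in each comparison, and from each other list at most 4 called genes by smallest p, or the gene with the smallest p, could be named. Most lists are given by counts alone, and Ghr by genotype on each diet was added after its values were seen. Cell type lists besides those in the report covered macrophages, endothelium, stellate cells, bile duct, lymphocytes, adipose tissue, red blood cells and pancreas.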

Additional observations from a re-analysis of the deposited data

Results flagged for a closer look

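In 4 of 40 sets (10 members in 4 groups of 4 livers), the gap between 1 liver and its nearest neighbour was above Dixon's critical value for 4 samples as a share of the group's range. Chance flags about 1 in 20 such sets. Stat5a in mutant HFD replicate 1 was 6.15, below 9.17 to 9.93 in the other 3 mutants on HFD. Trim24 in the same library was 27.5, below 48.6 to 54.4. Socs2 in control chow replicate 4 was 35.2, above 11.4 to 12.9 in the other controls on chow. Trim24 in mutant chow replicate 4 was 56, above 44.8 to 45.3 in the other mutants on chow.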

How the results depend on the processing

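No member passed the adjusted threshold for genotype, diet or their interaction under any alternative except library weights, which called 6 for genotype on HFD and 3 for diet in controls, and 2 for the HFD title series (30.9%, 17.8% and 20.9% of all tested genes). Outside leave-one-out, 407 of 430 log2 differences kept their sign, and with 1 library left out 515 of 560 did. The cause of a change was not tested. No paired analysis was possible because the labels give no replicate numbers. Fits of 2 groups only were not made for the interaction and the series term. Diet differences allow no series term. With depth unknown, low members such as Bcl6 and Jak2 carry unknown counting error.

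At an unadjusted p under 0.05, with the share of all tested genes in brackets, library weights gave 8 members for genotype on HFD (43.1%). Diet gave 6 in controls (33.6%) and 4 in mutants (10.7%) with the same weights, and the interaction gave 3 (25.7%). Scaling to a total of 1000000 gave 3 for genotype on HFD (8.53%) and 4 for diet in controls (17%), and the series term gave 0 for genotype on HFD (4.47%). Leaving out 1 library gave 0 to 1 for genotype on chow (3.34% to 9.78%) and 0 to 7 on HFD (4.49% to 23.9%). Diet then gave 0 to 4 in controls (8.3% to 26.7%) and 1 to 3 in mutants (4.78% to 10.3%), the interaction 1 to 2 (2.71% to 13.9%), and the series 2 to 6 (23.3% to 36.6%), with 1 to 4 called (5.61% to 23.7%).

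Signs turned as follows, in log2 differences. With the series term, genotype on chow was 0.076 for Stat5a and -0.0017 for Trim24. On HFD it was -0.050 for Jak2, -0.109 for Socs2, -0.415 for Cish, -0.026 for Bcl6 and -0.015 for Onecut1, and the interaction was -0.131 for Jak2, -0.783 for Socs2 and -0.219 for Onecut1. With median-of-ratios size factors, genotype on chow was -0.0016 for Stat5b and -0.023 for Trim24, and the Socs2 diet difference was 0.015 in controls and 0.021 in mutants. Scaled to a total of 1000000, genotype on chow was -0.045 for Stat5b and -0.067 for Trim24, and the series difference of Stat5b was 0.049. With library weights, Onecut1 on chow was -0.027, diet in mutants was 0.202 for Stat5a, 0.660 for Socs2 and 0.046 for Trim24, and the Cish interaction was 0.270. With a pseudocount of 0.1 the Socs2 interaction was -0.0017.

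With 1 library left out, differences that changed sign ranged, for genotype on chow, from -0.218 to 0.121 (Stat5a), -0.036 to 0.110 (Stat5b), -0.265 to 0.139 (Bcl6), -0.065 to 0.056 (Trim24) and -0.274 to 0.536 (Onecut1). For genotype on HFD they ranged from -0.150 to 0.411 (Cish) and -0.018 to 0.181 (Bcl6). For diet in controls they ranged from -0.322 to 0.377 (Socs2) and -0.567 to 0.242 (Onecut1). For diet in mutants they ranged from -0.261 to 0.078 (Stat5a), -0.320 to 0.521 (Socs2), -0.178 to 0.501 (Cux2) and -0.184 to 0.136 (Trim24). For the interaction they ranged from -0.017 to 0.290 (Jak2), -0.377 to 0.522 (Socs2) and -0.066 to 0.338 (Bcl6), and for the series from -0.240 to 0.049 (Stat5b) and -0.656 to 1.884 (Cux2).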

Other observations

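Of the remaining cell type lists, 0 genes passed for genotype or diet. The summed signal of 10 Kupffer cell and macrophage markers was 194 to 605 in controls and 322 to 1214 in mutants on chow, and 379 to 659 and 335 to 506 on HFD. The HFD title series called 25.2% of all tested genes. The lists that follow are short, and their shares called lie on both sides of that value. In the higher-numbered HFD series 3 of 8 endothelial and 2 of 9 stellate markers were higher, 1 of 10 macrophage, 1 of 10 hepatocyte and 2 of 5 tested red blood cell markers were lower, and 0 of 5 bile duct and 0 of 7 lymphocyte markers tested were called. Adiponectin (Adipoq) had no row, and 1 adipose and 1 pancreas marker were tested, of which the adipose one was lower in the higher-numbered series.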
